A study of Mus musculus with 3 samples.

Results

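Non-fibrillar collagens are the collagen chains that do not build the banded fibrils of type I, II, III, V and XI collagen, and 33 of their genes were listed in the table of 56833 genes. They were chosen by name, as every gene whose symbol is Col, a number, a and a number, without the 11 fibrillar chains. RNA was sequenced from ankle synovium cells of Efhd1CreER; Ai9 mice, in which the Cre recombinase of the Efhd1 gene switches on the tdTomato reporter, so the sorted cells, labelled telocytes, are those in which that gene was active when Cre was induced or their descendants. Sorted tdTomato+ cells, all of this genotype, were grown for 24 h on plates coated with collagen, at 0.2 kPa (called soft here), at 8 kPa (called intermediate) or at 64 kPa (called stiff). Up to 2 synovia were digested in a tube, and neither mouse age nor the number of animals behind a culture is stated in the labels. Each level had 1 library, so no value here has a replicate error and no p-value is given.

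Network-forming collagens make sheets: type IV is the scaffold of basement membranes and types VIII and X make hexagonal lattices. Type VI forms beaded microfibrils around cells and binds them to the surrounding matrix. FACITs (fibril-associated collagens with interrupted triple helices) sit on the surface of fibrils, multiplexins lie in and near basement membranes, and transmembrane collagens stay in the plasma membrane or are shed from it. In synovium and other connective tissue, fibroblasts make much of the type VI and FACIT collagen.

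The soft library held 25487064 reads, the intermediate 28081600 and the stiff 26474862, and the collagen genes together took 1.17%, 1.45% and 1.70% of them. The 6 fibroblast and telocyte markers summed to 140844, 150696 and 162928 normalized counts (reads divided by a size factor per library) in the soft, intermediate and stiff library, and 4 of them were higher and 2 lower in the stiff than in the soft. Values given in threes below follow this order. Among these markers Cd34 and Pdgfra, both used to define telocytes, stood at 235, 242 and 318 and at 5884, 6298 and 5118. Efhd1 itself had 10, 5 and 3 reads, and the reporter tdTomato stood at 818, 1193 and 2668 normalized counts. All 12 macrophage markers had higher values in the stiff than in the soft library, and their summed level was 28555, 35136 and 61563 normalized counts. The 8 endothelial markers summed to 173, 213 and 185, mostly Egfl7. Among them Cldn5 had 0 reads in every library, Cdh5 5, 3 and 0, Pecam1 12, 13 and 4, Tek 13, 22 and 21 and Kdr 21, 27 and 45. The 6 mural markers summed to 643, 672 and 609. Schwann markers summed to 137, 176 and 294, nearly all of it Mbp. The 7 chondrocyte markers summed to 669, 892 and 642, mostly Sox9 at 467, 715 and 485, with Hapln1 at 178, 124 and 86.1, Acan at 22, 53 and 64 reads, and Matn1, Cnmd and Snorc at 0 reads in every library. The 5 keratinocyte markers summed to 65.6, 38.7 and 54.4, nearly all of it Trp63, with Krt14, Krt15 and Dsg3 at 0. The part of these cell types in the results below was not tested, and in bulk RNA fewer cells of a type and less RNA per cell cannot be told apart.

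Of the 19 members that averaged 10 or more normalized counts, 17 had at least 1 promoter window, 19 in all, in the RefSeq-based table for GRCm38.p6. A window runs from 250 bases before to 50 bases after each annotated start. The windows of Col4a1 and Col4a2, which encode the most widespread type IV chains, overlapped by 78 bases, because the starts that RefSeq gives for them lie 21 bases apart on opposite strands. Each gene is read from its own start toward and past the other start, so by RefSeq the genes overlap there. The gene bounds from GENCODE, given below, begin Col4a2 further upstream, so that the overlap is longer. The stretch around both starts is printed because the values of these neighbours are compared below. Windows were also searched on both strands for 2 motifs of factors that act downstream of matrix stiffness as background knowledge, GGAATG (bound by TEAD proteins, the partners of YAP and TAZ) and the CArG box (bound by SRF), and for the general promoter motif GGGCGG. The 3 members with GGAATG or a CArG box are shown with their match. Each sequence was placed on GRCm39 by exact match and reads 5′ to 3′ on the strand given, with the motif in capitals (GGGCGG in the first, GGAATG read on the other strand in the next pair, the CArG box in the last).
Col4a2 and Col4a1, chr8:11362801-11362830, plus strand: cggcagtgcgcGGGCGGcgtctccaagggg
Col6a2, chr10:76459336-76459365, minus strand: cctcccccagctCATTCCccagcttcatct
Col18a1, chr10:76949626-76949655, minus strand: tcaggctgggttCATTCCcttctgccagag
Col6a4, chr9:105974082-105974111, minus strand: gagccaatgaCCATTTTTGGcgaatggcaa

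In the first stretch the RefSeq start of Col4a2 is base 5 and the Col4a1 start, read on the other strand, is base 26. The GGGCGG at bases 12 to 17 thus lies between the starts and downstream of both. A gene was counted when any of its windows held the motif, for members and for all 27025 genes of the table alike. GGAATG was found for 2 of the 17 members, Col6a2 and Col18a1, the only ones with 2 windows, and for 16.6% of all genes. A CArG box was found for 1 of the 17, Col6a4, and for 1.81% of all genes. GGGCGG was found for 11 of the 17 and for 38.2% of all genes. The general motifs CCAAT and TATAAA were found for 8 and 2 of the 17 and for 41.1% and 15.7% of all genes. Each motif was counted by itself, so matches that overlap count for each. A match is a run of letters and not a shown binding site.

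Across the full range of stiffness, the type IV chains Col4a1 and Col4a2, the type VI chain Col6a3 and the FACITs Col12a1 and Col16a1 were higher in the stiff than in the soft library, and the transmembrane collagen Col23a1 and Col28a1 were lower. A member was counted as higher or lower when its log2 ratio, with a pseudocount of 1, was at least 0.5 in size and it averaged 50 or more normalized counts across the libraries. Of the 33 members 17 reached that mean, and stiff against soft gave 5 of them higher and 2 lower. Over all 11873 genes with that mean, 11.8% were higher and 3.77% lower. With the local correction for transcript length and GC content described below, 0 of the 17 were higher and 3 lower, beside 7.72% and 3.97% of all genes. For the intermediate against soft comparison 3 of the 17 members (Col4a2, Col6a3 and Col7a1) were higher and 0 lower, beside 3.94% and 0.657% of all genes. So corrected, 0 were higher and 0 lower, beside 2.13% and 0.686%. Between stiff and intermediate 0 of the 17 were higher and 3 (Col23a1, Col7a1 and Col28a1) were lower, beside 5.42% and 3.42%. Past a log2 ratio of 1, Col4a2 was higher and Col23a1 lower in the stiff against soft comparison, beside 3.22% and 0.387% of all genes. By that stricter rule intermediate against soft gave 0 members either way, beside 0.160% of all genes higher and 0.00842% lower. Stiff against intermediate gave 0 higher and 1 lower, Col23a1, beside 0.825% and 0.421%.

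**Figure D1:**
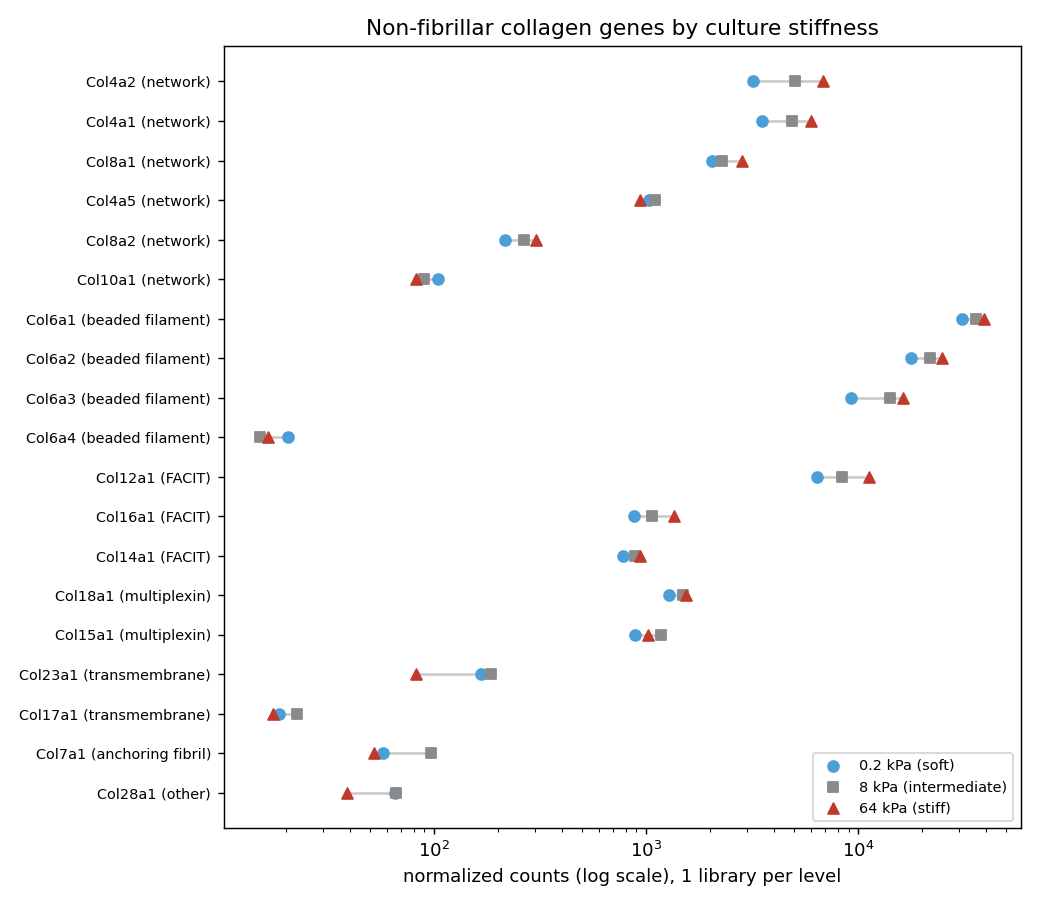
Normalized counts (log axis) of the 19 non-fibrillar collagen genes with a mean of at least 10, by class, with 1 point for each of the 3 libraries (0.2, 8 and 64 kPa). The stiff point lies right of the soft point for 12 of the 19 genes, and Col23a1 lies farthest to the other side.

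Order over the 3 levels gives a like picture. The values of 11 of the 17 members were ordered soft, intermediate, stiff from low to high, as were those of 30.2% of all genes, and 1 member, Col10a1, had the opposite order, as did 25.6% of all genes. With at least 0.25 per step, 4 members (Col4a1, Col4a2, Col12a1 and Col16a1) moved up over both steps, beside 5.73% of all genes, and 0 moved down, beside 0.707%. Under each of the corrections described next, 0 of these 4 kept at least 0.25 in both steps. Both corrected steps stayed above 0 for Col4a1, Col4a2 and Col12a1, and the first fell below 0 for Col16a1. With at least 0.5 per step 0 members moved up and 0 down, beside 1.04% and 0.0421%. Over the 19 members that averaged 10 or more, the median log2 ratio was 0.27 for stiff against soft, 0.28 for intermediate against soft and 0.11 for stiff against intermediate. The medians over all 14291 genes with that mean were 0.00, 0.01 and 0.01. By class, the stiff to soft median was 0.62 over 3 FACIT genes, 0.48 over 6 network genes, 0.41 over 4 beaded filament genes, 0.24 over 2 multiplexin genes and -0.55 over 2 transmembrane genes. With the correction for transcript length and GC content described next, these medians were 0.058, 0.17, 0.12, -0.26 and -0.91, so the order of the classes changed and the multiplexin median turned sign.

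Length and base composition moved with these ratios. Members had a median transcript length of 5839 nt and a GC content of 55.6%, against 3277 nt and 50.1% for the 13923 genes with a mean of at least 10 that matched the annotation. Genes were split by length into 4 groups of equal number and likewise by GC content. The 376 genes in both the longest and the most GC-rich group had a median stiff to soft log2 ratio of 0.54, and 8 of the 17 members are among them. The 415 genes in both the shortest and the most GC-poor group had a median of -0.15, and 0 members are among them. With a local linear trend in length and GC content subtracted, 0 of the 17 members were higher by at least 0.5 between stiff and soft and 3 (Col23a1, Col7a1 and Col28a1) were lower, beside 7.72% and 3.97% of all genes. Intermediate against soft then gave 0 higher and 0 lower, beside 2.13% and 0.686%. Stiff against intermediate gave 0 higher and the same 3 lower, beside 4.64% and 3.31%. The median over the 19 members was then -0.073 for stiff against soft, and 0.058 by a second correction, the median of the 200 genes nearest in length and GC content. Whether the trend arose in the libraries or in the cells was not tested, so values corrected by the local fit are given beside deposited ratios, for most genes named. The second correction gave the same counts of members for stiff against soft, and its values are added for single genes where they differ from the local fit by about 1.5 times or more.

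**Figure D2:**
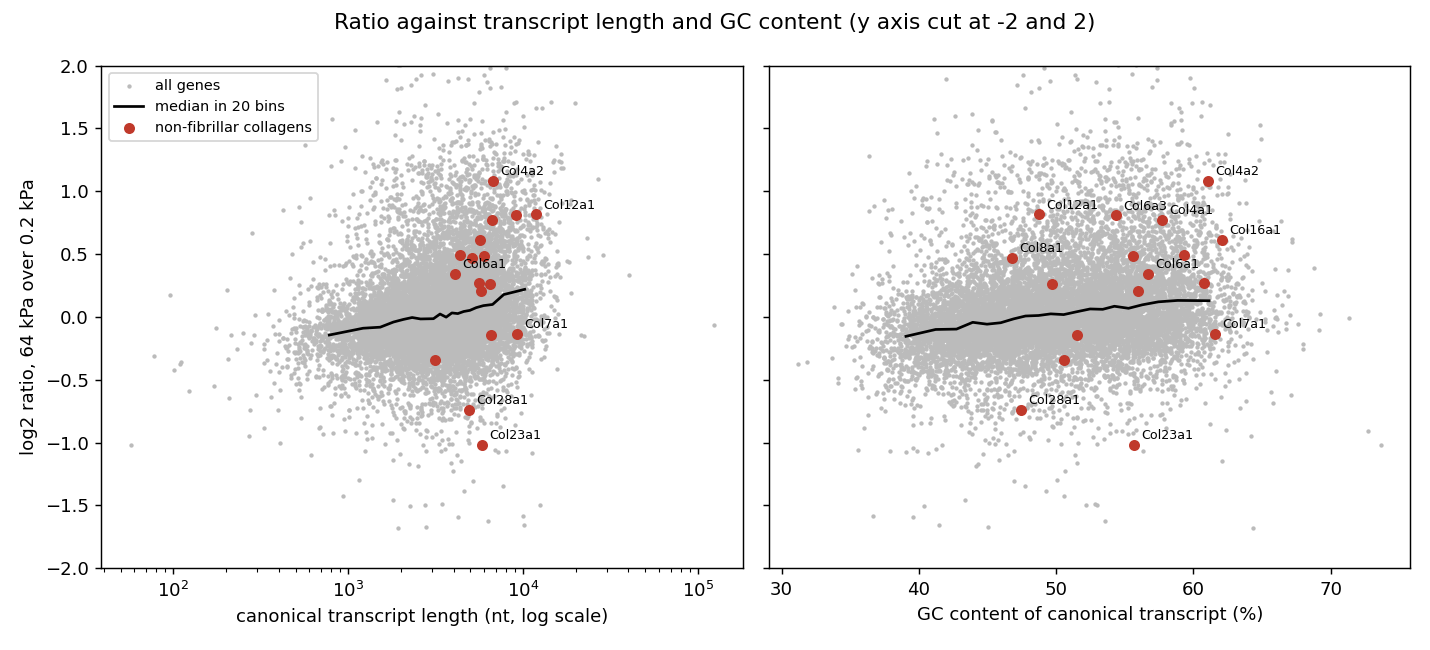
Log2 ratio of 64 kPa over 0.2 kPa against canonical transcript length (log axis) and GC content for all genes with a mean of at least 50 that matched the annotation (grey), with the median in 20 bins (line) and the 17 non-fibrillar collagen genes with that mean (red). The line climbs with both length and GC content, and most of the collagen genes lie toward the long and GC-rich ends.

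Type IV collagen was represented by Col4a1 and Col4a2, with Col4a5 below them. Col4a2 (chromosome 8, 11362471 to 11499287, plus strand, 48 exons in the canonical transcript, GRCm39 as are all gene positions here) stood at 3201, 5030 and 6787 normalized counts. These values climbed at each step, and the stiff to soft log2 ratio was 1.08, with a counting interval of 1.02 to 1.15. Every such interval is an exact 95% Clopper-Pearson interval on recovered reads and covers counting error only. Col4a1 (chromosome 8, 11248423 to 11362826, minus strand, 52 exons) stood at 3522, 4893 and 6016. Its stiff to soft ratio was 0.77, from 0.71 to 0.83, so the intervals of these neighbours do not overlap. After subtraction of the trend in length and GC content, the ratio was 0.35 for Col4a2 and 0.22 for Col4a1. Exons of the pair overlap on opposite strands by 311 nt, and whether counting used strand is not given in the sources used here.

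Col4a5 (chromosome X, 140258354 to 140472231, plus strand), whose chain joins with those of Col4a3 and Col4a4 or of Col4a6, did not follow them. It stood at 1033, 1099 and 935 normalized counts, highest in the intermediate and lowest in the stiff library. The stiff to soft ratio was -0.14, from -0.27 to -0.01, and -0.39 with the trend subtracted. Its partner genes were at the limit of detection: Col4a3 had 0 reads in every library, Col4a4 had 0, 2 and 3 reads, and Col4a6 had 2, 13 and 9.

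The remaining network genes were Col8a1 and Col8a2, the chains of type VIII collagen, and Col10a1, the collagen of hypertrophic cartilage. Col8a1 stood at 2034, 2270 and 2820 normalized counts, lowest in the soft and highest in the stiff library, with a stiff to soft ratio of 0.47 (0.39 to 0.56). It kept most of this with the trend subtracted, at 0.42, or 0.45 by the nearest 200 genes. By that second correction Col12a1 and Col4a2 stood higher, both at 0.48. Col8a2 stood at 215, 266 and 304, again in order of stiffness, with a ratio of 0.49 (0.24 to 0.76) that was 0.13 after correction. Col10a1 stood at 104.6, 89.6 and 82.0, with a ratio of -0.35 (-0.32 corrected) whose counting interval from -0.79 to 0.09 includes 0. It shares 651 nt of exon with Nt5dc1 on the other strand.

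The type VI genes were the most abundant members. Per kilobase of canonical transcript, Col6a1 had 7547, 8723 and 9587 normalized counts, Col6a2 had 2970, 3670 and 4150, and Col6a3 had 1013, 1552 and 1777. No other member had a mean level per kilobase as high, and Col4a2 and Col12a1 came next. All 3 type VI genes were ordered by stiffness, and their stiff to soft log2 ratios differed in size. Col6a3 (chromosome 1, 90693645 to 90771780, minus strand, 41 exons), whose long chain carries many von Willebrand factor A domains, stood at 9223, 14136 and 16188 normalized counts. Its stiff to soft ratio was 0.81 (0.77 to 0.85), of which 0.62 came between soft and intermediate and 0.20 between intermediate and stiff. The ratio was 0.48 (0.45 to 0.51) for Col6a2 and 0.35 (0.32 to 0.37) for Col6a1, which lie in tandem on the minus strand of chromosome 10. With the trend subtracted by the local fit the ratios of Col6a3, Col6a2 and Col6a1 were 0.14, 0.11 and 0.13. By the nearest 200 genes they were 0.25, 0.16 and 0.14, so how far Col6a3 stood from its partners depended on the correction. The corrected stiff to intermediate ratio of Col6a3 was -0.085, or -0.015 by the nearest 200 genes, so its order by stiffness was not kept. For Col6a2 and Col6a1 that ratio stayed just above 0 under both, at 0.0050 and 0.0074 by the local fit. Of the other type VI genes Col6a4 had 20, 16 and 16 reads, and Col6a5 and Col6a6 had 0 in every library.

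Chains of one collagen assemble together, so their balance was taken within each library, where the scaling of libraries has no part. The ratio of Col4a1 to Col4a2 reads per kilobase was 1.12 (1.07 to 1.18), 0.99 (0.95 to 1.03) and 0.90 (0.87 to 0.94). The 3 intervals do not overlap, and Col4a2 passed Col4a1 between the lowest and the highest stiffness. For Col6a3 to Col6a1 the ratio was 0.134 (0.131 to 0.137), 0.178 (0.175 to 0.181) and 0.185 (0.182 to 0.189), again with no overlap of the 3 intervals and with the larger step between soft and intermediate. For Col6a1 to Col6a2 it was 2.54 (2.49 to 2.59), 2.38 (2.34 to 2.42) and 2.31 (2.27 to 2.35). Col8a1 to Col8a2 was at 8.06, 7.29 and 7.93, with intervals that all overlap. GC content was 61.1% for Col4a2 and 57.7% for Col4a1, 54.4% for Col6a3 and 56.7% for Col6a1, and 59.3% for Col8a2 and 46.8% for Col8a1, and the transcripts were 6746 and 6615 nt, 9107 and 4100 nt, and 4359 and 5108 nt long. By the local fit the corrected stiff to soft ratios were 0.35 for Col4a2 and 0.22 for Col4a1, and 0.14 for Col6a3 and 0.13 for Col6a1. By the nearest 200 genes they were 0.48 and 0.185, and 0.25 and 0.14. The gap within type IV thus nearly kept its deposited size by the second correction and narrowed by the first. Between Col6a3 and Col6a1, deposited at 0.81 and 0.35, the gap narrowed under both. For Col8a1 and Col8a2 the deposited ratios were 0.47 and 0.49. They were 0.42 and 0.13 by the local fit, and 0.45 and 0.15 by the nearest 200 genes, so a gap opened under both.

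**Figure D3:**
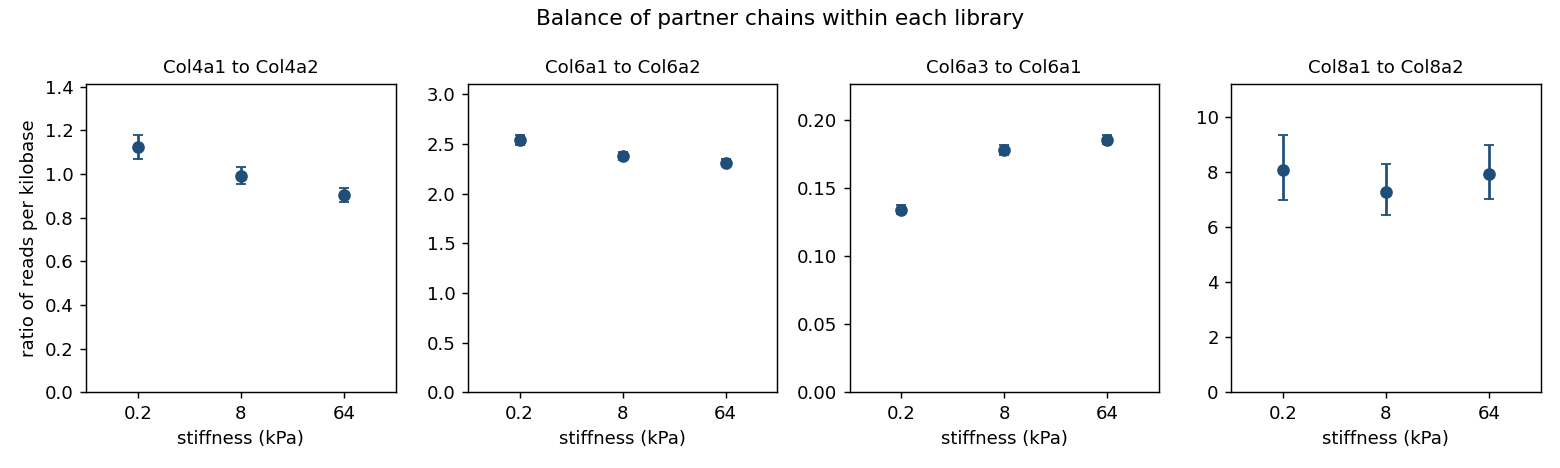
Ratio of reads per kilobase of canonical transcript between partner chains in each library, against plate stiffness in kPa, with exact 95% counting intervals (y axes start at 0). Col4a1 to Col4a2 goes from 1.12 to 0.90 and Col6a3 to Col6a1 from 0.134 to 0.185 between the soft and stiff libraries, while the intervals of Col8a1 to Col8a2 overlap. The length and GC trend is not subtracted here. With it subtracted by the local fit, the stiff to soft log2 ratios were 0.42 for Col8a1 and 0.13 for Col8a2, and 0.14 for Col6a3 and 0.13 for Col6a1.

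Among FACITs, Col12a1 was the most abundant. Col12a1 (chromosome 9, 79506268 to 79626135, minus strand, 66 exons), a large collagen that links fibrils to other matrix proteins, stood at 6384, 8409 and 11259 normalized counts. Both steps were of like size, 0.40 and 0.42, and the stiff to soft ratio was 0.82 (0.77 to 0.86). With the trend subtracted it was 0.33 (0.48 by the nearest 200 genes). The corrected steps were 0.046 and then 0.30, or 0.17 and 0.35 by the nearest 200 genes, so they were no longer of like size. The antisense transcript gene 4930562D21Rik shares 698 nt of exon with it. Col16a1 (chromosome 4, 129941154 to 129993076, plus strand, 70 exons) stood at 881, 1068 and 1351, with a ratio of 0.62 (0.49 to 0.74). Its transcript has a GC content of 62.1%, above 98.3% of the genes compared, and after correction the ratio was -0.073, or 0.058 by the nearest 200 genes, so its sign depended on the correction. Col14a1, whose product lies on the surface of type I fibrils, stood at 780, 881 and 936, with a ratio of 0.26 (0.12 to 0.40) and 0.06 after correction. The cartilage FACIT gene Col9a2 had 5, 10 and 13 reads, Col9a3 0, 3 and 2, Col20a1 3, 2 and 5, and Col22a1 2, 0 and 3. Col9a1 and Col19a1 had 0 reads in every library.

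The multiplexins differed little. Col18a1, the source of endostatin, stood at 1284, 1490 and 1546 normalized counts, with a stiff to soft ratio of 0.27 (0.16 to 0.38). It overlaps Slc19a1 on the other strand by 896 nt of exon. Col15a1 stood at 886, 1179 and 1024, highest in the intermediate library, with ratios of 0.41 (0.29 to 0.54) for intermediate to soft and 0.21 (0.08 to 0.34) for stiff to soft. With the trend subtracted the stiff to soft ratios were -0.38 and -0.14, so both stood on the other side of 0.

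The members counted as lower in the stiff library in a comparison, Col23a1, Col28a1 and Col7a1, had mean levels under 200 normalized counts. Col23a1 (chromosome 11, 51180566 to 51474745, plus strand, 29 exons), a transmembrane collagen that furin can release from the cell surface, stood at 167, 185 and 82.0 normalized counts, from 163, 196 and 80 reads. The soft and intermediate libraries were close and the stiff library was lower. Its log2 ratio was 0.14 (-0.16 to 0.45) for intermediate to soft, -1.16 (-1.57 to -0.79) for stiff to intermediate and -1.02 (-1.43 to -0.63) for stiff to soft. With the trend subtracted the last was -1.37, the lowest among the 19 members. Col28a1 (chromosome 6, 7997102 to 8192617, minus strand), a collagen with von Willebrand factor A domains, followed the same course at 65.6, 66.0 and 39.0, with a stiff to soft ratio of -0.74 (-1.37 to -0.15), and -0.81 corrected. Col7a1 (chromosome 9, 108782647 to 108813943, plus strand, 119 exons), which builds the anchoring fibrils beneath epithelia, stood at 57.4, 96.2 and 52.3 and was high in the intermediate library alone. Its ratio was 0.73 (0.26 to 1.24) for intermediate to soft and -0.87 (-1.39 to -0.38) for stiff to intermediate. With the trend subtracted the first was 0.10, or 0.31 by the nearest 200 genes. Its stiff to soft ratio was -0.13 (-0.71 to 0.44) as deposited and -1.01 corrected, or -0.78 by the nearest 200 genes, so the corrected values put the stiff library low more than the intermediate library high. Col17a1, a hemidesmosome component, had 18, 24 and 17 reads, which allows no order. Col13a1 had 1, 6 and 1 reads, Col25a1 2, 3 and 4, and Col26a1 had 0.

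**Figure D4:**
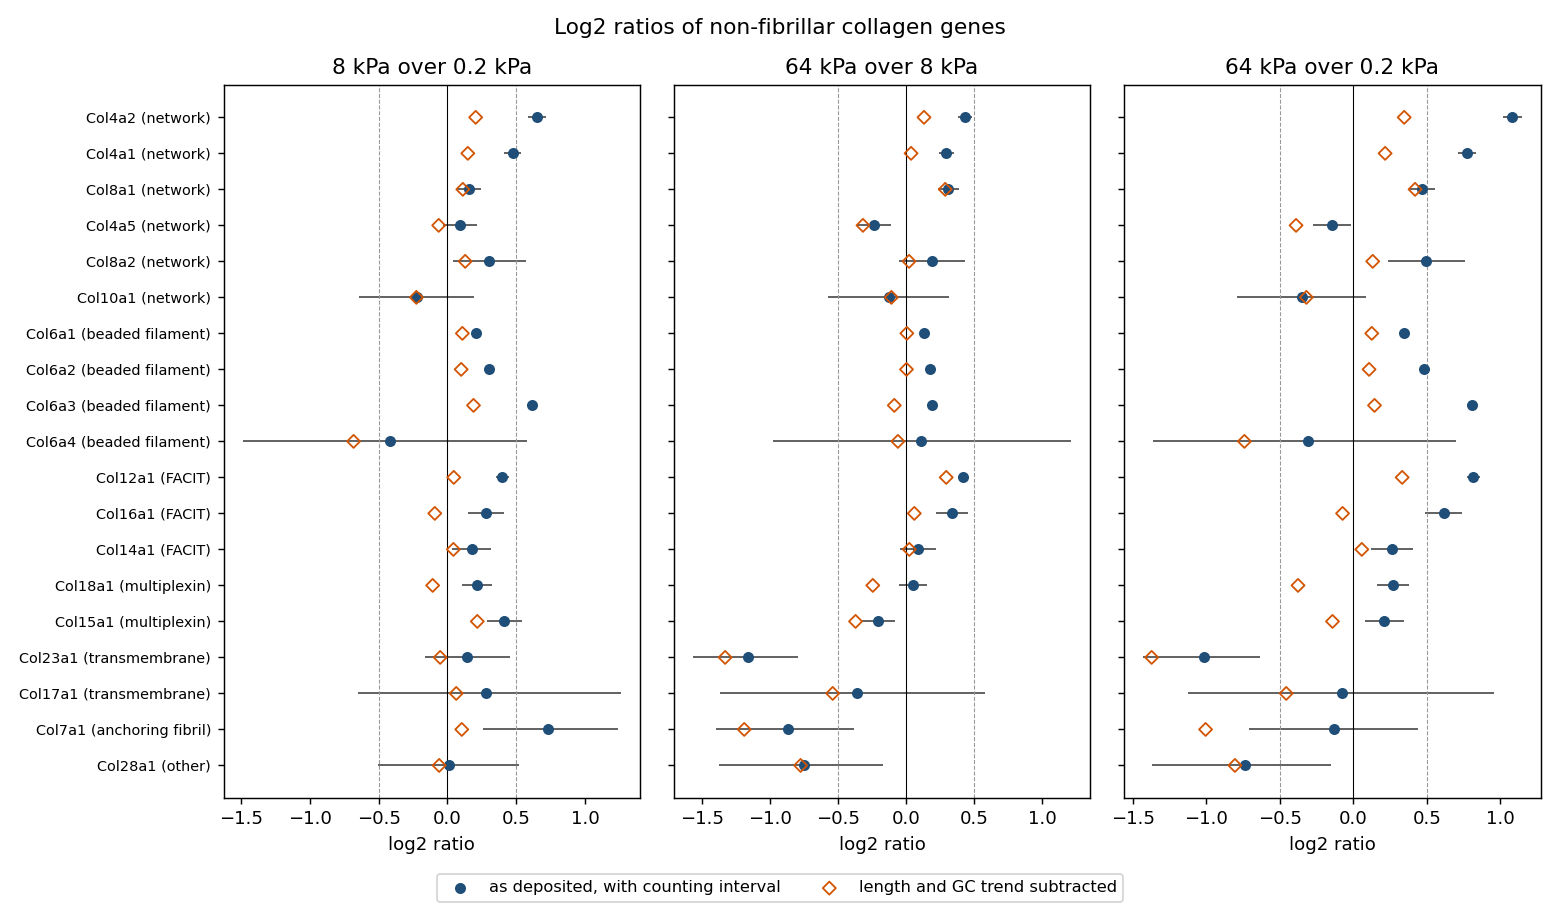
Log2 ratios of the 19 non-fibrillar collagen genes for each stiffness step and for the full range, as deposited with exact 95% counting intervals (filled) and with the length and GC trend subtracted (open), and dashed lines at -0.5 and 0.5. Col4a2 at 1.08 and Col23a1 at -1.02 are the highest and lowest filled markers of the right panel. The open markers of the 17 genes with a mean of at least 50 all lie below 0.5.

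In all, 6 members (Col4a3, Col6a5, Col6a6, Col9a1, Col19a1 and Col26a1) had no read, and the other 8 below a mean of 10 had at most 13 reads in a library. For a gene at 0, up to 3 reads remain possible, or 3.08, 2.83 and 3.08 normalized counts. Transcript of those 6 was therefore not detectable at this depth.

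As a share of all collagen reads, the members took 25.7% (25.6% to 25.9%), 25.8% (25.7% to 25.9%) and 24.6% (24.5% to 24.7%), with the fibrillar chains taking the rest. The share was lower in the stiff library, by more than the counting error. Within collagen reads the beaded filament class went from 19.0% to 17.4% between soft and stiff, the network class from 3.31% to 3.67% and the FACIT class from 2.64% to 2.94%. The 6 most abundant members held 90.4%, 91.1% and 91.9% of the members' reads. For comparison, 6 of the 8 fibrillar genes past the same mean were higher and 0 lower for stiff against soft, beside the 11.8% and 3.77% of all genes, with a median log2 ratio of 0.56 over 10 genes and 0.18 with the trend subtracted, when 2 of the 8 were higher and 0 lower, beside 7.72% and 3.97%. The 6 were Col2a1 at 1.46 (corrected 0.85), Col5a1 at 1.30 (0.58), Col1a1, the most abundant, at 0.95 (0.44), Col5a2 at 0.64 (0.44), Col5a3 at 0.58 (-0.16, or -0.0068 by the nearest 200 genes) and Col11a1 at 0.53 (0.30). The difference between these families was not tested.

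Genes that act with these collagens were listed by role. Among 12 collagen receptors, 4 of the 11 past that mean were higher and 0 lower for stiff against soft, beside the same 11.8% and 3.77%, with a median of 0.27 over the 12. After correction 3 of the 11 were higher and 0 lower, beside 7.72% and 3.97% of all genes, and the median turned to -0.20 (-0.15 by the nearest 200 genes). The collagen-binding integrin gene Itga11 stood at 669, 979 and 1329 normalized counts, a ratio of 0.99 (0.85 to 1.13), and 0.71 corrected. Itga1 had a ratio of 0.64 (0.40 to 0.88), and 0.57 corrected. Cspg4, which encodes a type VI collagen-binding proteoglycan, stood at 1642, 2496 and 2376, a ratio of 0.53 (0.44 to 0.63) that was -0.23 with the trend subtracted, or -0.12 by the nearest 200 genes. Lair1, an inhibitory collagen receptor of leukocytes, stood at 97.4, 163 and 204 with a ratio of 1.06, and 1.07 corrected, beside the macrophage markers above. Antxr1, which encodes a receptor that binds type VI collagen, stood at 5045, 6319 and 4356 and was lower in the stiff than in the intermediate library, at -0.54. Itgb1, the most abundant receptor gene, had a stiff to soft ratio of 0.18, and 0.24 corrected.

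Among 12 genes for folding, secretion and crosslinking, 1 was higher and 0 lower between stiff and soft, a count close to the 11.8% and 3.77% of all genes, with a median of 0.25 (0.053 corrected). Loxl2, which crosslinks type IV collagen, stood at 2908, 3355 and 4594, a ratio of 0.66 (0.59 to 0.73). Corrected it was 0.4996, at the edge of the threshold, and 0.54 by the nearest 200 genes. The most abundant of them, P4hb, a subunit of prolyl hydroxylase, had a ratio of -0.10, and -0.17 corrected. Among 14 matrix partners, 6 of the 13 past the mean were higher and 0 lower, again beside 11.8% and 3.77%, with a median of 0.42 over the 14. After correction 2 of the 13, Hspg2 and Lama4, were higher and 0 lower, beside 7.72% and 3.97%, and the median was 0.18. They were Hspg2, the basement membrane proteoglycan perlecan, at 1.71 (0.63 with the trend subtracted, 1.06 by the nearest 200 genes), Lama4 at 0.86 (0.67), Lamb1 at 0.69 (0.47), Tnxb at 0.67, Lamc1 at 0.66 (0.13) and Nid2 at 0.56 (0.35), with corrected values in parentheses. Tnxb stood at -0.35 after the local fit and at 0.023 by the nearest 200 genes. The most abundant partner, Sparc, a collagen-binding glycoprotein, had a ratio of 0.03.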

How the data were processed

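The authors deposited normalized values (a signal: gene counts over a size factor for each library, per the file names). The submitters' processing notes name bcl2fastq 2.20.0, STAR 2.7.9a, featureCounts, Subread 2.0.1, DESeq2 1.34.0 and GRCm39, and the annotation release and strand setting are not given in the sources used here. Libraries were stranded and poly(A)-selected, per the labels' protocols. The 3 deposited files were identical, with columns named by sample title. Within each column 100% of values could be written as whole reads times 1 constant, to within 0.001 of a read, so reads were recovered. Amplified reads are not independent molecules, so intervals and floors cover counting error only. A test of counts needs replicates and was not made.

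Members and lists were chosen with earlier results of these data known. Members with a mean of at least 10 are described, and genes of the fibrillar, receptor, folding and matrix partner lists are named when they passed 0.5 in a comparison or were the most abundant of their list. Cell type markers are given by their sums, with those at 0 reads and others chosen after their values were seen. Lengths, GC content and positions come from GENCODE vM39 canonical transcripts, matched by symbol (13923 of 14291 genes averaging 10 or more, and 33 of 33 members). The trend was fitted robustly and locally, as a line through the 300 nearest genes, with the median of the 200 nearest as an alternative. Scripts were tested on simulated data. Figures were drawn with matplotlib 3.10.9, and values computed in Python 3.11.15 with pandas 2.3.3, scikit-learn 1.9.0, scipy 1.17.1 and numpy 2.4.6.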

Additional observations from a re-analysis of the deposited data

How the results depend on the processing

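With 1 library per level, leaving out a replicate and a count test could not be run. No paired analysis was possible because each group has 1 sample. Of 57 ratios of single members, 48 stayed inside their counting intervals under both other pseudocounts and all 4 other scalings, and none of those called changed sign. Relative to the deposited scaling, those scalings moved every stiff to soft ratio by between -0.058 and -0.0076. The 5 members higher and 2 lower were unchanged in number under each of them. Under 3 of the 4 (total reads, upper quartile, and total reads without the 100 most abundant genes), Cspg4 and Col11a1 fell below 0.5, leaving 3 receptors and 5 fibrillar genes higher, and 1 receptor, Antxr2, passed -0.5.

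Under both length and GC corrections, members called higher went from 5 to 0 between stiff and soft and from 3 to 0 between intermediate and soft. Those moving up by at least 0.25 in both steps went from 4 to 0 under both. The stiff to soft median became 0.058 with the nearest 200 genes and -0.073 with the local linear fit, under which Col16a1 turned to -0.073. With that fit the median was 0.064 for intermediate against soft and -0.058 for stiff against intermediate. The cause was not tested.

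Without a filter on low values, the stiff to soft comparison gave 11 members higher and 2 lower. The intermediate to soft comparison gave 8 higher and 1 lower, and the stiff to intermediate comparison 2 higher and 4 lower, and 7 moved up over both steps. Over the 23558 genes with a read the same rule gave 20.3% higher and 18.2% lower for stiff to soft. It gave 16.9% higher and 15.1% lower for intermediate to soft, 16.9% higher and 17.6% lower for stiff to intermediate, and 5.59% moving up. Members added by dropping the filter had at most 13 reads in a library. With a mean of at least 200, 0 members were lower between stiff and soft and 0 between stiff and intermediate, since Col23a1, Col28a1 and Col7a1 do not reach that mean, beside 2.24% and 2.31% of the 9704 genes that do. At a log2 ratio of at least 1, 1 was higher and 1 lower between stiff and soft, 0 higher between intermediate and soft and 1 lower between stiff and intermediate. At 0.5 per step 0 moved up, and with any step above 0, 11 moved up and 1 down.

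With the union of all exons as length, the chain ratios in the soft, intermediate and stiff library were 1.06, 0.94 and 0.85 for Col4a1 to Col4a2, 3.28, 3.07 and 2.98 for Col6a1 to Col6a2, 0.145, 0.192 and 0.200 for Col6a3 to Col6a1 and 6.08, 5.50 and 5.98 for Col8a1 to Col8a2. The non-fibrillar share per kilobase was 26.9%, 26.7% and 25.3%. Depth limits the 14 members below a mean of 10.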
